A study of Arabidopsis thaliana with 6 samples.

Results

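The 8 genes described here encode enzymes, partners and substrates of the plant Cys/Arg N-degron pathway, the route that destroys certain proteins when oxygen is present. They are PRT6 (AT5G02310), ATE1 (AT5G05700), ATE2 (AT3G11240), ACBP1 (AT5G53470), ACBP2 (AT4G27780), ACBP4 (AT3G05420), VRN2 (AT4G16845) and ZPR2 (AT3G60890). They were taken by locus code and not by a cut-off on their values, with earlier results of these data known. All 8 were found among the 31305 loci of the deposited table. Bulk RNA sequencing was done on Arabidopsis thaliana callus, the unorganised tissue that forms from explants on a medium rich in auxin and cytokinin. Hypocotyls were cut from seedlings aged 1 week and kept for 7 days on callus-inducing medium. The wild type Col-0 and the line labelled rap2.12-2, an allele named after the transcription factor RAP2.12, gave 3 libraries each, described as biological replicates. Both groups had the same tissue, medium and time, and the labels give no further treatment and do not say what lesion the allele carries.

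In this pathway, methionine aminopeptidases remove the first methionine of proteins whose second residue is cysteine, and plant cysteine oxidases then use oxygen to oxidise the exposed cysteine. The arginyltransferases ATE1 and ATE2 add arginine to the oxidised end, and the ubiquitin ligase PRT6 recognises that arginine and marks the protein for the proteasome. Under low oxygen the cysteine stays unoxidised and the substrates accumulate. Known substrates in Arabidopsis are the group VII ethylene response factors (ERF-VII), among them RAP2.12, the Polycomb protein VRN2 and the little zipper protein ZPR2. ACBP1 and ACBP2, acyl-CoA-binding proteins of membranes, bind ERF-VII proteins and can hold RAP2.12 at the plasma membrane. ACBP4 is a cytosolic member of that family with a kelch domain and binds RAP2.3.

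The feature that makes a protein a candidate for this pathway stands in the first bases of its coding sequence. The first 24 coding bases of the 7 substrate genes are printed 5′ to 3′ from TAIR10.1, with the second codon, TGT or TGC for cysteine, in capitals.
VRN2: atgTGTaggcagaattgtcgcgcg
ZPR2: atgTGTctgacaacttcagagcca
RAP2.12: atgTGTggaggagctataatatcc
RAP2.2: atgTGTggaggagctataatctcc
RAP2.3: atgTGTggcggtgctattatttcc
HRE1: atgTGCggaggagctgtaatttcc
HRE2: atgTGTgggggagctatcatttct
The VRN2 stretch lies at chr4:9476708-9476731 on the plus strand and the ZPR2 stretch at chr3:22497419-22497442 on the minus strand. The RAP2.12 stretch lies at chr1:20135242-20135265 on the plus strand. All 3 annotated protein models of ZPR2 have the cysteine codon in second place, against 1 of 2 models of VRN2 and 2 of 3 of HRE1. The 4 other ERF-VII genes share 20 to 23 of the 24 bases with RAP2.12, whereas VRN2 shares 9 and ZPR2 shares 11. The 6 genes of enzymes and partners have no cysteine codon there in any model. Among 27444 nuclear loci with a coding sequence, 290 (1.06%) have TGT or TGC as the second codon in at least 1 annotated model.

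The table gives TPM (a transcript abundance scaled by transcript length and to a fixed sum per library), which keeps no sequencing depth, and the spread among the 3 libraries of a group gives the precision. Listed values of Col-0 replicate 1 summed to 845341 TPM against 984523 to 992724 in the others, and its organelle genes to 12005 TPM against 157 to 537. Of 13 listed callus regulators, 12 had a mean of at least 1 TPM. PLT3 measured 200 to 402 TPM, PLT1 85.0 to 131 and WOX5 25.8 to 29.5. LBD17 was lower at 1.44 to 3.16 TPM, and LBD29, at 0 to 0.58 TPM, was the 1 below that mean. The summed level of 13 such regulators was 870, 944 and 992 TPM in Col-0, and the libraries labelled rap2.12-2 gave 597, 947 and 888 TPM, where replicate 1 was lowest. Of the regulators, WOX11, a factor of root founder cells, had the smallest p (log2 fold change -0.90, limma adjusted p = 0.32). The summed level of 6 green tissue markers was 24 to 45.5 TPM, and RBCS1A among them had the smallest p (-0.56, limma adjusted p = 0.83). All 5 xylem markers had positive changes, with summed levels of 166 to 211 TPM in Col-0 and 258 to 285 TPM in the other group, and XCP2, a vessel protease gene, had the smallest p (0.56, limma adjusted p = 0.39). In rap2.12-2 replicate 1 values also fell with transcript length, as described below. Whether the libraries differ in cell makeup, and what part that has in the results below, was not tested. Fewer cells of a type and less RNA per cell cannot be told apart in bulk tissue. RAP2.12, the gene of the label, measured 123, 140 and 161 TPM in Col-0, and the other group gave 360, 363 and 465 TPM. The libraries labelled rap2.12-2 thus had more RAP2.12 transcript, not less (log2 fold change 1.48, SE 0.17, limma adjusted p = 0.026), so every direction is given relative to the label only. The call was lost on leaving out any 1 library except rap2.12-2 replicate 1 (limma adjusted p = 0.053 to 0.22), with log2 fold changes of 1.36 to 1.58.

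None of the 7 genes that could be tested was called different between the genotypes. The question was whether transcripts of the machinery acting on RAP2.12 differ where the RAP2.12 allele differs. Of the 8 genes, 7 passed the filter of a mean of at least 1 TPM and 0 of them passed limma at an adjusted p under 0.05, in a comparison that called 13 of 18629 genes (0.0698%; 0.0429% higher, 0.0268% lower). By limma's p under 0.05 before adjustment 0 of the 7 passed too, where 6.84% of all genes did. Their log2 fold changes ran from -0.37 to 0.05 with a median of -0.13, and the median of all tested genes was -0.02. The groups did not overlap in 1 of the 7, VRN2, which was lower (6.03% of all genes were lower without overlap, 6.62% higher and 12.7% either way). ZPR2 did not pass the filter and was not tested.

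**Figure D1:**
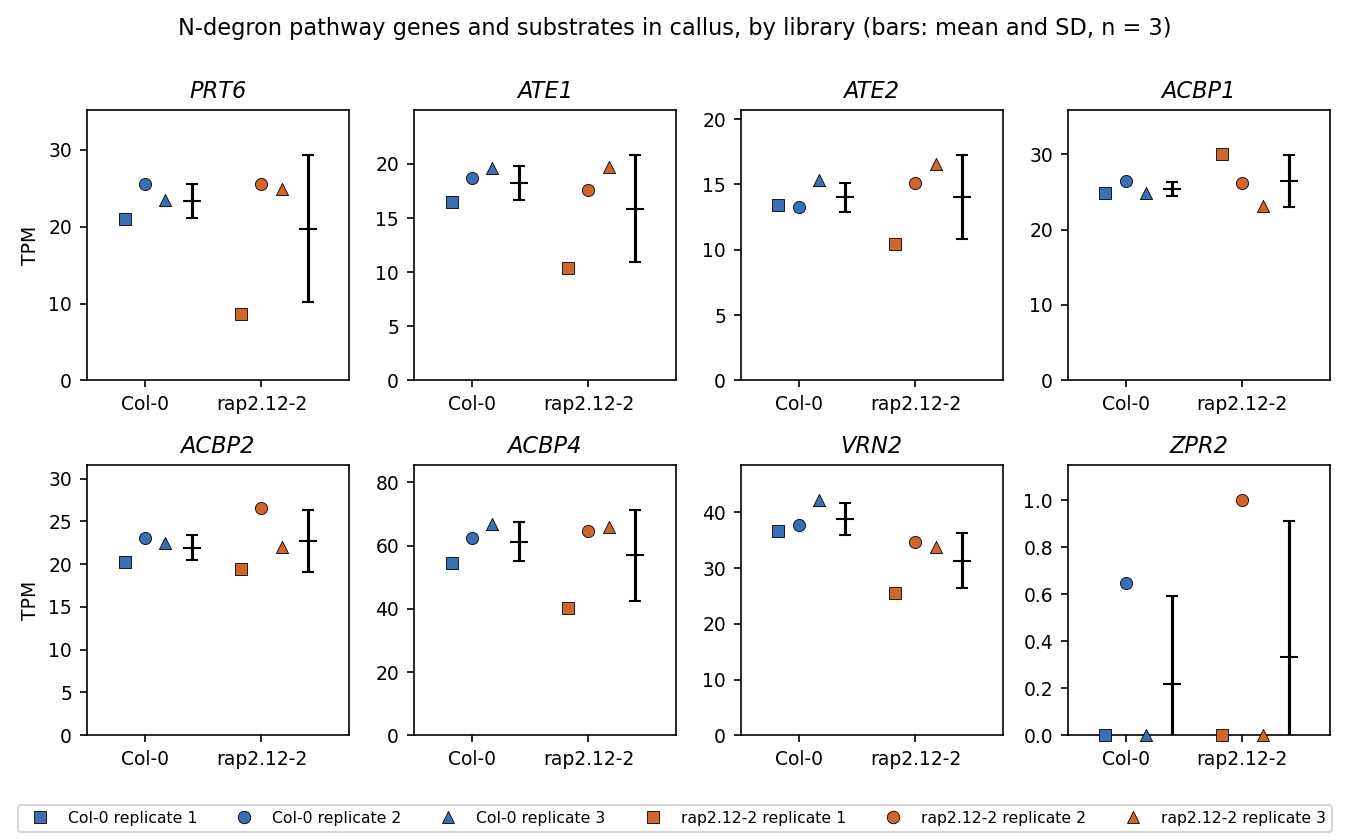
TPM of each of the 8 genes (y axis, from 0, own scale in each panel) in 3 Col-0 libraries (blue) and 3 libraries labelled rap2.12-2 (orange), with the replicate number as the symbol and bars for mean ± SD (n = 3). In the orange group the square, replicate 1, lies lowest for PRT6, ATE1, ATE2, ACBP2, ACBP4 and VRN2, and ZPR2 is above 0 in 1 library of each group.

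PRT6, the ubiquitin ligase that reads arginine at a protein's start, was present at a middle level, and 1 library set the difference between its groups. It lies on chromosome 5 (473868 to 482942, plus strand, TAIR10.1), with 17 coding segments for a protein of 2006 residues. It measured 21.0, 25.5 and 23.5 TPM in Col-0, and the libraries labelled rap2.12-2 gave 8.68, 25.5 and 24.95 TPM. Replicate 1 of the second group was far below the other 5, which lay close together, and the groups overlapped. Its means of 23.3 ± 2.25 and 19.7 ± 9.57 TPM (SD over 3 libraries) gave a log2 fold change of -0.37 (95% interval -1.19 to 0.45, limma adjusted p = 0.88). Without that library the log2 fold change was 0.11. The end of PRT6 overlaps MYB3R-5 on the opposite strand over 150 bases. MYB3R-5 measured 6.69 to 9.61 TPM. Unless strand was used in counting, reads wholly inside the overlap do not show by position which gene they came from.

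ATE1 and ATE2, which encode the arginyltransferases acting one step before PRT6, were both present at a similar level. ATE1 (chromosome 5, 1712670 to 1715731, minus strand) measured 16.5, 18.7 and 19.6 TPM in Col-0, and the libraries labelled rap2.12-2 gave 10.3, 17.6 and 19.7 TPM. ATE2 (chromosome 3, 3518472 to 3521188, minus strand) measured 13.4, 13.3 and 15.3 TPM in Col-0, and the other group gave 10.4, 15.1 and 16.6 TPM. For both genes the lowest of the 6 values was that of rap2.12-2 replicate 1, and the groups overlapped. The means of ATE1 were 18.3 ± 1.58 and 15.9 ± 4.92 TPM (n = 3 each, log2 fold change -0.23, 95% interval -0.78 to 0.32, limma adjusted p = 0.88). Those of ATE2 were 14.0 ± 1.13 and 14.0 ± 3.21 TPM (n = 3 each, -0.02, -0.49 to 0.45, limma adjusted p = 0.99). The sign for ATE2 turned with quantile scaling (0.06). Without rap2.12-2 replicate 1 the values were 0.03 for ATE1 and 0.17 for ATE2, where the median of all tested genes was 0.06. The transcripts of this pair are 76.1% identical over 1448 aligned bases and have no stretch of 100 bases or longer in common at 95% identity.

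The share of the transferase pair that came from ATE1 was compared within each library, where scaling between libraries has no effect. The ratio of ATE1 to ATE2 was 1.23, 1.41 and 1.28 in Col-0, while the libraries labelled rap2.12-2 had 0.993, 1.17 and 1.19. All 3 Col-0 ratios lay above all 3 others, a log2 difference of -0.23 (means 0.38 ± 0.10 and 0.15 ± 0.14, SD, n = 3 each). By an exact permutation test, two-sided, p was 0.10, the smallest that 3 against 3 allows, and 0.15 adjusted over the 3 ratios compared. Without rap2.12-2 replicate 1 the difference was -0.15.

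The genes of the 3 ERF-VII-binding acyl-CoA-binding proteins differed in level, with ACBP4 highest, and none changed by limma. ACBP1 (chromosome 5, 21710170 to 21712614, plus strand) measured 24.9, 26.4 and 24.8 TPM in Col-0, and the libraries labelled rap2.12-2 gave 30.0, 26.2 and 23.1 TPM. It was the 1 gene of the 7 for which rap2.12-2 replicate 1 gave the highest value, and the groups overlapped. Its means were 25.4 ± 0.886 and 26.4 ± 3.44 TPM (n = 3 each, log2 fold change 0.05, 95% interval -0.32 to 0.42, limma adjusted p = 0.96). It overlaps GLT1 on the same strand over 127 bases. GLT1 measured 134 TPM in rap2.12-2 replicate 1 and 240 to 310 TPM elsewhere. Reads wholly inside that overlap do not show by position or strand which gene they came from. Their part in the ACBP1 values was not tested.

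ACBP2 (chromosome 4, 13847549 to 13849934, plus strand) measured 20.3, 23.1 and 22.4 TPM in Col-0, and the other group gave 19.5, 26.6 and 21.98 TPM. The Col-0 values all lay inside the range of the other group, with means of 21.9 ± 1.46 and 22.7 ± 3.63 TPM (n = 3 each, log2 fold change 0.04, 95% interval -0.36 to 0.43, limma adjusted p = 0.97). The signs for ACBP1 and ACBP2 turned when organelle genes were removed (-0.03 and -0.04) and on rescaling to nuclear protein-coding genes (-0.03 and -0.04). The median of all tested genes moved too, from -0.02 to -0.10 under either setting. ACBP4 (chromosome 3, 1561671 to 1567336, plus strand) measured 54.5, 62.3 and 66.7 TPM in Col-0, and the other group gave 40.4, 64.6 and 65.7 TPM. Only rap2.12-2 replicate 1 lay outside the Col-0 range. The means were 61.2 ± 6.19 and 56.9 ± 14.3 TPM (n = 3 each, log2 fold change -0.13, 95% interval -0.61 to 0.35, limma adjusted p = 0.91), and the log2 fold change was 0.09 without that library.

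Within libraries, ACBP1 stood to ACBP2 at 1.23, 1.14 and 1.11 in Col-0, while the libraries labelled rap2.12-2 had 1.54, 0.983 and 1.05, with overlapping groups (log2 difference 0.01, exact two-sided permutation p = 1.0, adjusted p = 1.0). ACBP4 exceeded its closest relative, the kelch-domain gene ACBP5, by far in every library. The ratio of ACBP4 to ACBP5 was 55.6, 77.0 and 47.7 in Col-0, while the other group had 28.7, 26.2 and 38.2. The Col-0 ratios were all higher, a log2 difference of -0.94 (means 5.88 ± 0.35 and 4.94 ± 0.28, n = 3 each, exact two-sided permutation p = 0.10, the smallest possible, adjusted p = 0.15). ACBP5 itself measured 0.980, 0.810 and 1.40 TPM in Col-0, and the other group gave 1.41, 2.46 and 1.72 TPM, so this ratio rests on a low denominator. With 1 TPM added to both values the log2 difference was -0.60. ACBP6, a small cytosolic member of the family, was the most abundant at 212 to 354 TPM, and ACBP3 measured 14.2 to 20.7 TPM.

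VRN2, the substrate that joins Polycomb repressive complex 2 (PRC2) and is known for holding the flowering repressor gene FLC silent after cold, had lower values in the libraries labelled rap2.12-2, short of the test. It lies on chromosome 4 (9476069 to 9479878, plus strand). It measured 36.7, 37.8 and 42.1 TPM in Col-0, and the other group gave 25.6, 34.8 and 33.7 TPM. Every Col-0 value lay above every other value. The means were 38.9 ± 2.87 and 31.4 ± 5.02 TPM (n = 3 each), a ratio of 0.807, with a log2 fold change of -0.31 (95% interval -0.70 to 0.08, limma adjusted p = 0.83). Without rap2.12-2 replicate 1 it was -0.18, and with the trend along transcript length, described below, removed from each library it was -0.29 (limma adjusted p = 0.33).

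ZPR2, whose short protein of 106 residues binds HD-ZIP III transcription factors and keeps them from acting in the shoot meristem, was hardly present in this callus. It lies on chromosome 3 (22496875 to 22498099, minus strand). It measured 0.65 TPM in Col-0 replicate 2 and 1.00 TPM in rap2.12-2 replicate 2, and was listed at 0 in the other 4 libraries. Its mean over the 6 libraries was 0.275 TPM. No fold change is given, because most values are listed at 0 and the depth behind a 0 is unknown.

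In order of level, ACBP4 came first at 59.1 ± 10.1 TPM (SD over 6 libraries), followed by VRN2 at 35.1 ± 5.51, ACBP1 at 25.9 ± 2.32, ACBP2 at 22.3 ± 2.51, PRT6 at 21.5 ± 6.52, ATE1 at 17.1 ± 3.52, ATE2 at 14.0 ± 2.15 and ZPR2. The ranges of every pair of neighbours overlapped except those of ATE2 and ZPR2. ACBP4 exceeded VRN2 in 6 of 6 libraries. VRN2 exceeded ACBP1, ACBP1 exceeded ACBP2, PRT6 exceeded ATE1 and ATE1 exceeded ATE2 in 5 of 6 each, whereas ACBP2 exceeded PRT6 in 2 of 6. Of all kept genes, 81.9% had a lower mean than ACBP4, 53.2% a lower mean than PRT6 and 39.5% a lower mean than ATE2.

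**Figure D2:**
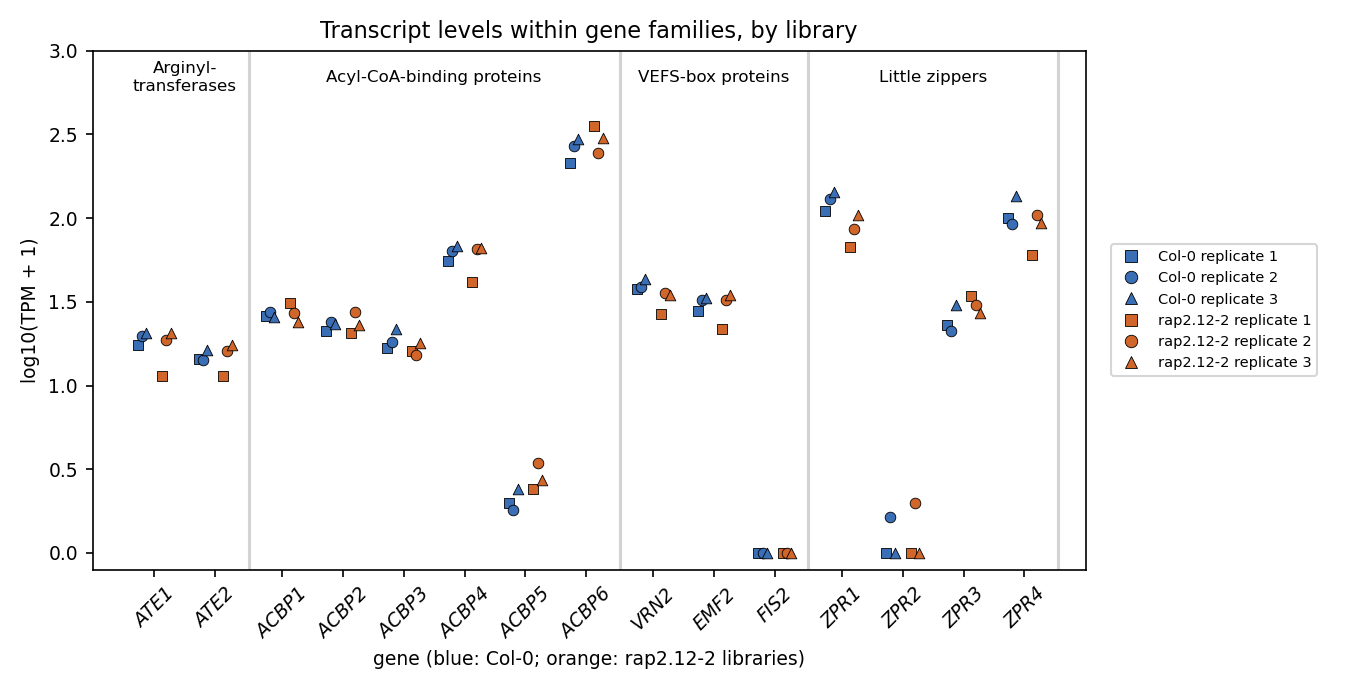
Level as log10(TPM + 1) of each gene (x axis) in the 3 Col-0 libraries (blue) and the 3 labelled rap2.12-2 (orange), by replicate symbol, for 4 gene families. ZPR2 and ACBP5 lie near the bottom of their families, FIS2 is at 0 in all 6 libraries, and ACBP6 is the most abundant acyl-CoA-binding gene.

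Levels also differed inside the families of the substrates. Besides VRN2, the VEFS-box family of PRC2 subunits holds EMF2, at 20.7 to 33.9 TPM, and the seed gene FIS2, listed at 0 in all 6 libraries. VRN2 was above EMF2 in 5 of 6 libraries. The exception was rap2.12-2 replicate 3, with 33.7 TPM for VRN2 and 33.9 TPM for EMF2. Among the little zippers, ZPR1 measured 66.3 to 143 TPM, ZPR4 59.1 to 135 TPM and ZPR3 20.2 to 33.1 TPM, so ZPR2 was the lowest of the 4 in every library.

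The library labelled rap2.12-2 replicate 1 gave the lowest of the 6 values for 6 of the 7 tested genes, PRT6, ATE1, ATE2, ACBP2, ACBP4 and VRN2. This was also true of 42.5% of all kept genes. PRT6 was the 1 gene of the 7 for which that library lay under 0.5 times the lowest of the other 5, as did 5.44% of all kept genes. The position of that library moved with transcript length. Among 2803 kept genes with transcripts of up to 1000 bases its median deviation from the mean of the 6 libraries was 0.22 on the log2(TPM + 1) scale. It was -0.04 among 8990 genes of 1001 to 2000 bases, -0.32 among 4651 genes of 2001 to 3000 bases, -0.57 at 3001 to 4000 bases and -1.04 among 138 genes longer than 6000 bases, and each of these 138 was lowest in it. Deviations are taken from the mean of the same 6 libraries. A fall in 1 library therefore sets an opposite shift in the mean of the others, and no trend is read from those.

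**Figure D3:**
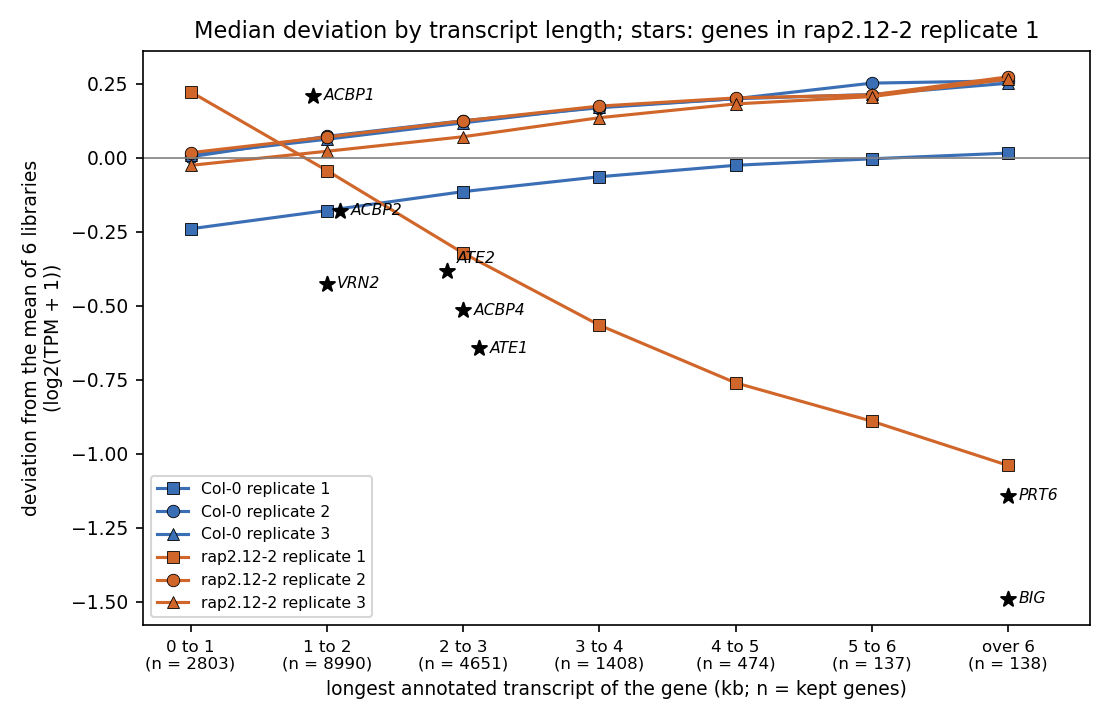
Median deviation of each library from the mean of the 6 libraries (y axis, log2(TPM + 1)) by the length of the longest annotated transcript in kb (x axis, with the number of kept genes), and, as stars, the deviation of single genes in rap2.12-2 replicate 1. That library falls from 0.22 to -1.04 with length, and PRT6 and BIG, among the longest transcripts, lie lowest. Centring on the mean of all 6 sets an opposite shift in the mean of the other 5, not in each of them. Col-0 replicate 1 is negative in each length group up to 6000 bases (-0.24 at up to 1000 bases, -0.06 at 3001 to 4000 bases).

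PRT6 has a transcript of 6769 bases, the longest of the 8. Its deviation in that library was -1.14, and the running median over genes of neighbouring length was -1.0. ATE1 (2363 bases) deviated by -0.64 where its neighbours in length had -0.33, ACBP4 (2508 bases) by -0.52 where they had -0.36, and ATE2 (2314 bases) by -0.38 where they had -0.33. VRN2 (1884 bases) deviated by -0.43 and its neighbours by -0.20. ACBP2 (1633 bases) deviated by -0.18 and ACBP1 (1567 bases) by 0.21, with neighbours at -0.09 and -0.05. BIG (AT3G02260), which encodes a ubiquitin ligase that acts beside PRT6 in this pathway, has a transcript of 15700 bases and measured 8.98 TPM in that library and 28.9 to 38.4 TPM in the other 5.

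When the running median along length was subtracted from each library, a step chosen after the data were seen, the log2 fold change of PRT6 was -0.04 (95% interval -0.27 to 0.20) in place of -0.37. Those of ATE1 and ACBP4 were -0.14 and -0.03. The ATE2 value became 0.06, a turned sign, and ACBP1 and ACBP2 stood at 0.01 and 0.06. Of the 7 genes 0 passed limma at an adjusted p under 0.05 in this fit too. The 95% interval of VRN2 (-0.51 to -0.06) excluded 0 here, before any adjustment over genes. This fit called 27 genes higher and 12 lower, and these 39 held all 13 of the deposited values. What gave rise to the length trend was not tested.

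The other genes of the pathway were described from 9 lists with 46 genes, of which 43 were kept. In these, 1 gene was higher (RAP2.12) and 0 were lower by limma at an adjusted p under 0.05. Of all kept genes 0.0429% were higher and 0.0268% lower. The lists had 15 positive and 28 negative log2 fold changes and a median of -0.05 (46.7% positive and a median of -0.02 over all kept genes). The groups did not overlap in 7 of 43 (16.3%, against 12.7% of all kept genes). No cysteine oxidase gene passed. PCO2, which oxidises the exposed cysteine and is itself known as a low-oxygen gene, measured 111, 127 and 132 TPM in Col-0, and the other group gave 99.8, 86.8 and 104 TPM. The groups did not overlap, and its log2 fold change was -0.34 (limma adjusted p = 0.71). Of the 5 oxidase genes 4 had a negative change, with a median of -0.09.

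Among the 6 methionine aminopeptidases, which expose the cysteine, 1 change was positive and 5 were negative. MAP1A had the smallest p, with 54.6 to 63.7 TPM in Col-0 and 64.3 to 68.6 TPM in the other group (log2 fold change 0.18, limma adjusted p = 0.87). The 2 amidase genes, which feed a parallel branch of the Arg/N-degron pathway, had small positive changes, 0.03 for NTAN1 and 0.16 for NTAQ1 (limma adjusted p = 0.89 for the latter). Leaving out Col-0 replicate 1 brought the NTAQ1 value to 0.02, and leaving out Col-0 replicate 2 to 0.29. Among 6 other recognition and ubiquitin-conjugating genes 3 were positive and 3 negative. BIG had the smallest p there (log2 fold change -0.47, limma adjusted p = 0.88), and its log2 fold change was 0.16 without rap2.12-2 replicate 1. In the list of 5 ERF-VII substrate genes RAP2.12 was the 1 gene called. Of the 3 other acyl-CoA-binding genes, ACBP5 had the smallest p (0.47, limma adjusted p = 0.85).

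**Figure D4:**
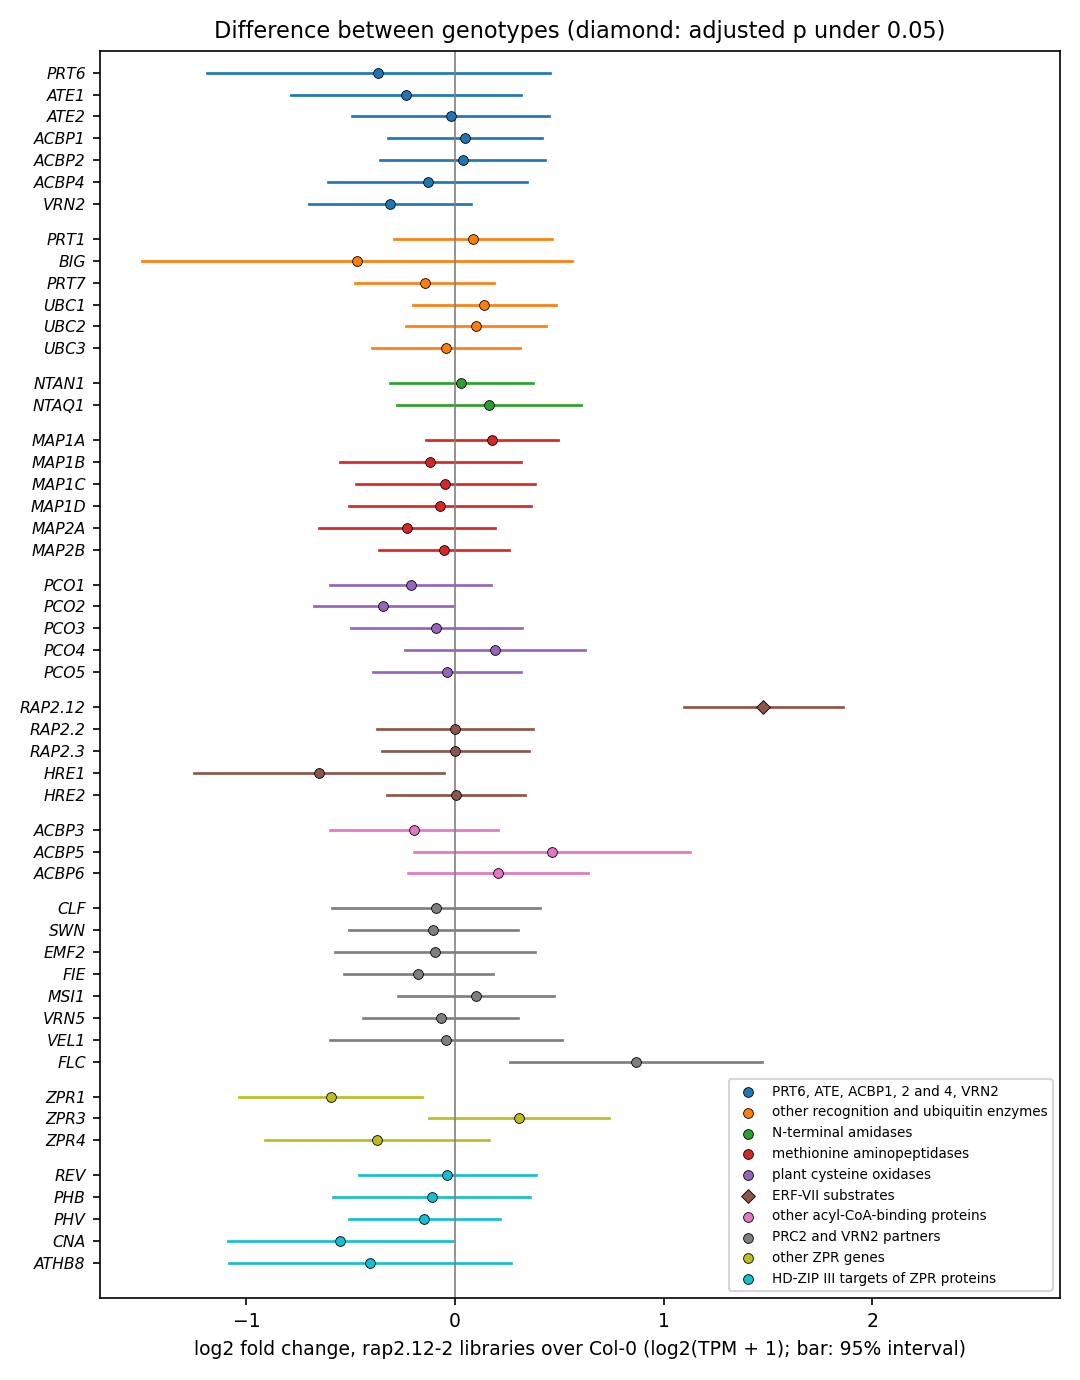
Log2 fold change (x axis, libraries labelled rap2.12-2 over Col-0, on the log2(TPM + 1) scale) with its 95% interval for 7 of the 8 genes and 43 further pathway genes (rows), coloured by list, with a diamond for an adjusted p under 0.05. RAP2.12 at 1.48 carries the 1 diamond, and the intervals of PRT6 to VRN2 all include 0.

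Genes downstream of the substrates were set beside them. FLC, the best known gene under VRN2-containing PRC2, measured 2.58, 2.43 and 2.50 TPM in Col-0, and the libraries labelled rap2.12-2 gave 7.91, 4.29 and 4.54 TPM. The groups did not overlap and rap2.12-2 replicate 1 was highest, but the gene did not pass over all genes (log2 fold change 0.87, SE 0.27, 95% interval 0.26 to 1.47, limma adjusted p = 0.47). Without that library the log2 fold change was 0.63. FLC has a transcript of 1042 bases, and with the length trend removed its log2 fold change was 0.77 (limma adjusted p = 0.27). The list of PRC2 genes and VRN2 partners holds 11 genes with FLC among them, of which 8 were kept. The 7 kept genes besides FLC had log2 fold changes from -0.18 to 0.10. VIN3, the cold-induced VRN2 partner, measured at most 0.09 TPM.

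Of the genes around ZPR2, its relative ZPR1 measured 110, 130 and 143 TPM in Col-0, and the other group gave 66.3, 84.7 and 104 TPM, without overlap (log2 fold change -0.60, limma adjusted p = 0.50). The 5 HD-ZIP III genes, whose proteins the little zippers bind, had negative changes with a median of -0.15, where 46.7% of all kept genes were positive. Each has a transcript of 3079 to 3618 bases and was lowest in rap2.12-2 replicate 1. Without that library the mean level lay above that of Col-0 for REV (62.7 against 59.0 TPM) and PHB (307 against 294 TPM), and below it for the other 3. CNA had the smallest p, at 162, 165 and 205 TPM in Col-0, and the other group gave 81.6, 145 and 147 TPM (-0.55, limma adjusted p = 0.72). The Col-0 values of CNA lay above all others, and rap2.12-2 replicate 1 was lowest. Without that library its log2 fold change was -0.27.

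Genes with a cysteine in second place form the wider set from which substrates of this pathway could come, although few of their proteins are known substrates. Of 287 such loci with deposited values, 190 were kept, with 95 positive and 95 negative log2 fold changes and a median of 0.00, against -0.02 over all kept genes, of which 46.7% were positive. RAP2.12 was the 1 gene called, where 0.0698% of all kept genes were. When p was left unadjusted (under 0.05) limma gave 3 higher and 10 lower genes. Among all 18629 kept genes 599 were higher and 675 lower, or 6.84%. The groups did not overlap in 25 of 190 (13.2%, against 12.7% of all kept genes). With only the loci whose every annotated model starts in this way, 88 were kept and the median was 0.04. By mean TPM over the 6 libraries, RAP2.3 ranked 1, RAP2.12 ranked 5 and RAP2.2 ranked 6 of the 287, whereas VRN2 ranked 50 and ZPR2 ranked 211.

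**Figure D5:**
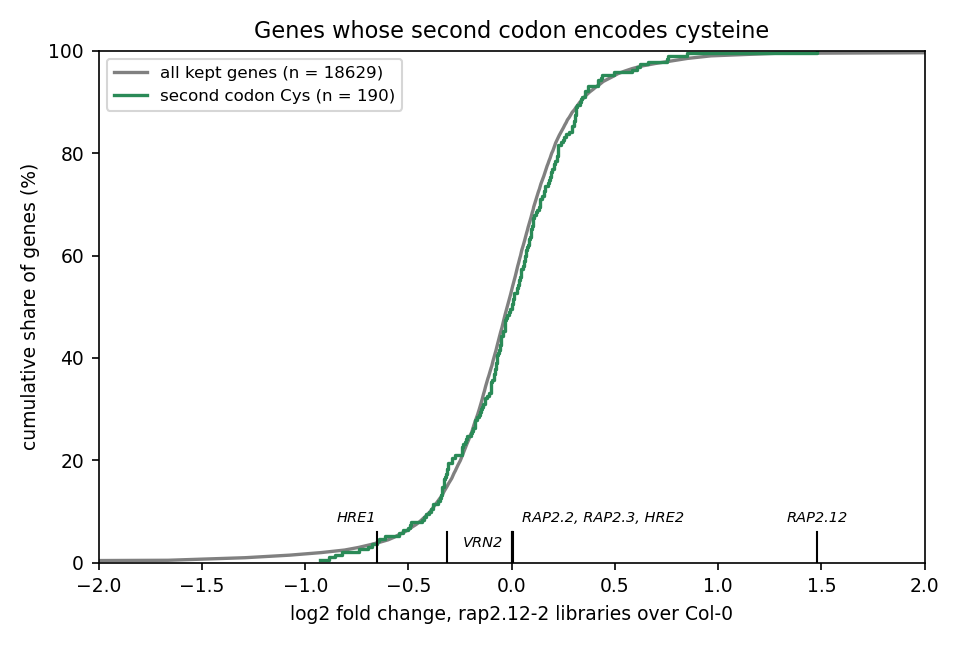
Cumulative share of genes in percent (y axis) by log2 fold change (x axis, libraries labelled rap2.12-2 over Col-0) for all 18629 kept genes (grey) and the 190 kept genes whose second codon encodes cysteine (green), with ticks at the substrate genes. Both curves run close together, and RAP2.12 at 1.48 lies apart at the right.

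The genes whose profile over the 6 libraries was most like that of each gene were found by Pearson correlation of log2(TPM + 1), given as a description. PRT6 was closest to AT5G14540, which encodes a proline-rich protein of unknown function (r = 0.9998). ATE1 was closest to the F-box gene SLOMO (r = 0.9992), ATE2 to the zinc finger gene AT4G15730 (0.9956) and ACBP1 to NF-YA4, which encodes a subunit of a transcription factor (0.9903). ACBP2 was closest to the RNA-binding protein gene AT4G09040 (r = 0.9987), ACBP4 to AT1G14570, which encodes a UBX domain protein (0.9997), and VRN2 to the kinesin gene ARK2 (0.9968). With 6 libraries such values are common. A correlation of at least 0.95 was reached by 1631 other kept genes with PRT6 and 1518 with ATE1, but by 27 with ACBP1. In 6 of the 7 pairs both genes were lowest in rap2.12-2 replicate 1, as in AT5G14540 at 19.3 TPM there and 46.3 to 55.9 TPM elsewhere. ACBP1 and NF-YA4 were instead highest in that library, NF-YA4 at 36.2 TPM there and 24.5 to 30.4 TPM elsewhere.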

How the data were processed

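The authors deposited 1 table of TPM for 31305 loci and 6 libraries, 3 per genotype. Per the labels, RNA was extracted with TransZol Up and libraries were made with a TruSeq kit. STAR 2.7.10a, RSEM 1.3.1 and the build TAIR10 are listed, per the submitters' processing notes, with no roles given, and the use of strand is not given in the sources used here. TPM keeps no depth.

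All else was computed here. Genes averaging 1 TPM or more over the 6 libraries (18629) were tested on log2(TPM + 1), which understates changes of low genes, with limma 3.58.1 in R 4.3.3 (mean-variance trend, no covariates, Benjamini-Hochberg adjustment over all 18629 genes, threshold 0.05). Ratios within libraries were compared with exact permutation tests (scipy 1.17.1). Fold changes are for the libraries labelled rap2.12-2 over Col-0. Coding starts, transcript lengths (longest annotated model, 18601 kept genes) and overlaps were read from TAIR10.1, and shared sequence was searched with BLAST 2.17.0. Second codons were read from genome coding sequences, because no protein table was used here. Of 78 listed loci, 75 carry the listed symbol in the reference; PRT7, NTAN1 and NTAQ1 are named as listed here.

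The genes and lists were chosen with earlier results of these data known. Named are the 8 genes, RAP2.12, in each list the genes called or else that with the smallest p, and the most similar profile of each gene. Levels of family members and markers, genes that overlap the 8, and values of NTAN1, VIN3, REV and PHB were added after their values were seen. The limma and length steps were tested on simulated data. Alternatives covered pseudocount, filter, scaling, variance prior, the replicate number, libraries left out, the threshold and transcript length.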

Additional observations from a re-analysis of the deposited data

How the results depend on the processing

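No setting called any of the 8 genes: the count was 0 under all 20 alternatives, and their smallest limma adjusted p was 0.33, for VRN2. VRN2 kept its sign under all 19 alternatives (-0.40 to -0.18). Leaving out 1 library gave log2 fold changes of -0.61 to 0.11 for PRT6, -0.40 to 0.03 for ATE1, -0.15 to 0.17 for ATE2, -0.043 to 0.14 for ACBP1, -0.078 to 0.14 for ACBP2, -0.25 to 0.094 for ACBP4, -0.39 to -0.18 for VRN2 and -0.83 to 0.16 for BIG. Without rap2.12-2 replicate 1 the signs of PRT6, ATE1, ATE2, ACBP1, ACBP4 and BIG turned, and the median of all genes moved from -0.021 to 0.060. The cause was not tested. Without both libraries numbered 1 the values were 0.042 for PRT6, 0.14 for ATE2, -0.057 for ACBP1, 0.014 for ACBP4 and 0.088 for BIG. For ATE2 quantile scaling gave 0.059 and removal of the length trend 0.057. Organelle removal gave -0.029 for ACBP1 and -0.039 for ACBP2, and rescaling to nuclear protein-coding genes -0.034 and -0.044. The median of all genes was -0.096 with organelle genes removed and -0.10 with nuclear protein-coding genes only. The within-library log2 difference ran from -0.19 to 0.14 for ACBP1 to ACBP2, -0.28 to -0.15 for ATE1 to ATE2 and -1.10 to -0.75 for ACBP4 to ACBP5 with 1 library left out. The RAP2.12 call was lost with no filter, with no variance trend, with the replicate block, without both libraries numbered 1 and on leaving out any library but rap2.12-2 replicate 1 (limma adjusted p = 0.053 to 0.31). Over all genes, 8 were called higher and 5 lower. The counts were 3 and 3 with no filter, 3 higher with median-of-ratios scaling, 2 and 3 with no variance trend, 0 and 0 without both libraries numbered 1, 27 and 12 with the length trend removed, and 8 lower at a threshold of 0.10. They ran from 2 to 19 higher and 2 to 6 lower with 1 library left out. With the replicate number as a block, 2 were called higher and 2 lower. Same-numbered libraries deviated together with r = 0.20, 0.35 and -0.11 across genes, and rap2.12-2 replicate 1 correlated best with Col-0 replicate 3 (0.23), so the numbers were not taken as pairs. Without a filter ZPR2 entered the fit, but its values at 0 leave the fold change uninterpretable. Depth is unknown, so the limit of detection behind a listed 0 cannot be given.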
